A study of Mus musculus with 6 samples.

Results

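The nucleolar factors of ribosome biogenesis were examined in mouse heart as a group of 43 genes, chosen by function after Rrp12 had been seen to be higher in hearts of an angiotensin receptor transgenic line. Members were every probe set annotated to exactly 1 of these genes, which gave 86 of the 45101 probe sets on the array. Heart RNA was measured on 3 arrays from mice labelled as overexpressing hAT1R, the human angiotensin II type 1 receptor, which mediates most pressor actions of that hormone, and on 3 arrays from normal C57BL/6 mice. The design text gives the mice as matched in age and sex. Neither an age nor the promoter driving the transgene is stated in the labels. Whether the 3 arrays of a group came from 3 animals is also unstated. Sex-linked transcripts differed within each group, so each held more than 1 animal, and p-values reflect the spread between arrays, which may be technical in part.

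The ribosome is built in the nucleolus. RNA polymerase I transcribes the ribosomal RNA precursor there. Small nucleolar ribonucleoproteins (snoRNPs) guide the methylation and pseudouridylation of its nucleotides, and a large complex named the small subunit processome folds and cleaves it. Further assembly factors then mature the small (40S) and large (60S) subunits and accompany them to the cytoplasm. In the heart, ribosome production is known to rise when cardiomyocytes grow.

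The instrument's records did not carry the group names of the sample labels. On the 3 arrays labelled transgenic the word typed into the chip lot field was "control", and on the 3 labelled non-transgenic it was "transgene". Groups follow the sample labels, so "labelled transgenic" is written, and every difference would change sign if the typed words were right. No probe set analysed here was annotated to the human receptor. Of all 11016 genes measured, 25 passed limma's moderated test at an adjusted p under 0.05, which is 0.227%. Xist, expressed from the inactive X, exceeded log2 6 on 2 labelled transgenic arrays and 1 other. The Y-linked Eif2s3y exceeded it on 1 labelled transgenic array and 2 others. Both groups thus held both sexes, but not in equal numbers, although the design text gives the mice as matched in sex. Fluidics station 2 handled the labelled transgenic group and non-transgenic array 1, while station 3 handled non-transgenic arrays 2 and 3, so a fit with the station as a block rests on a single non-transgenic array. Scanning ran through the labelled transgenic group and then the non-transgenic one, and scan order and group cannot be told apart. The actin control's 3' minus 5' log2 difference, a gauge of RNA integrity, was 0.879 ± 0.074 (SD, n = 3) on labelled transgenic arrays and 1.01 ± 0.04 on the others (exact permutation, 2-sided p = 0.1, the smallest that 3 against 3 allow). The part of station, scan order, sex or RNA integrity in the results below was not tested beyond the values given with station or Xist in the fit.

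Rrp12 prompted the list, and its values are given as a description with no test. Its product is a factor of small subunit maturation and export. The probe set for Rrp12 lay at log2 7.30, 7.63 and 7.83 on labelled transgenic arrays 1, 2 and 3, and at 6.23, 6.43 and 6.31 on non-transgenic arrays 1, 2 and 3. The groups did not overlap. The difference of the means was 1.26 on the log2 scale, or 2.4-fold, and ranked 50 among the rises of 11016 genes. Rrp12 had 1 probe set, so no other probe set checks the value.

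A difference of that size was not seen in any other member. All 43 genes had at least 1 of their probe sets above the brightness filter, which kept 76 of the 86 probe sets, and each gene was represented by its brightest probe set. Of the 42 genes other than Rrp12, none passed at an adjusted p under 0.05 (limma, Benjamini-Hochberg over all 22518 probe sets kept, where 0.218% passed), and 10 had an unadjusted p under 0.05 (23.8%, against 18.2% of all genes). Nor did any of their 75 probe sets pass. By brightest probe set, the largest difference after Rrp12 was that of Utp18, at 0.51. The dimmer Ubtf probe set was at 0.53, with a 95% interval (limma) up to 1.01, and the other Nhp2 probe set was also at 0.53. For the brightest probe sets the 95% interval (limma) lay wholly below log2 1, a doubling, in all 42. Its highest upper end there was 0.94, for Rrp15. In 28 of 42 the interval lay wholly between -0.5 and 0.5.

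Small differences above 0 were nevertheless common. Of the 42 genes, 35 had a difference above 0 and 7 below, where 52.4% of all genes were above 0 and 47.6% below. Their median was 0.11, against 0.0099 over all 11016 genes. Differences above 0.3 were found in 11 of 42, or 26.2%, against 11.2% of all genes, and differences below -0.3 in 0 of 42 against 8.01%. A difference of 1 or more was found in 0 of 42, against 0.799% of all genes. At an unadjusted p under 0.05, 9 of 42 were higher (21.4%, against 10.4% of all genes) and 1 was lower (2.38%, against 7.76%). In 11 of 42 the 3 labelled transgenic arrays lay above all 3 others (26.2%, against 14.3% of all genes), and in 3 of 42 below (7.14%, against 10.9%). These shares describe members that are not independent of each other, and no test of the list was made. With the fluidics station as a block, 30 of 42 were above 0 (52.0% of all genes in that fit). In the same fit 3 of 42 rather than 10 had an unadjusted p under 0.05, where 17.3% of all genes did, so the members' share lay below that of all genes.

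**Figure D1:**
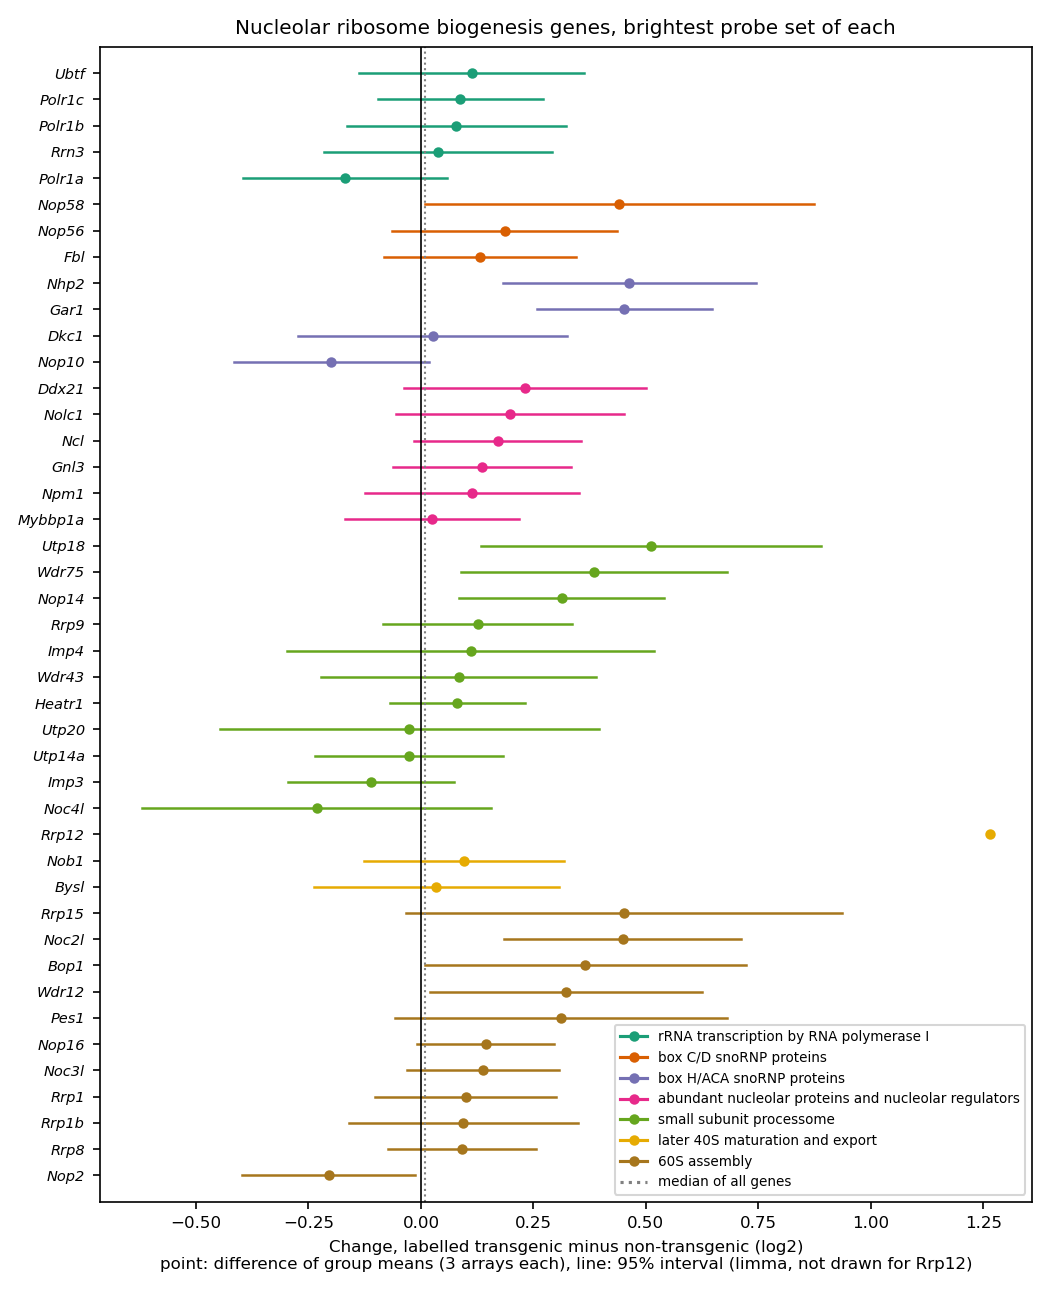
Difference between labelled transgenic and non-transgenic group means for each of the 43 genes (x axis, log2), grouped and coloured by role, with the 95% interval from limma as a line for every gene but Rrp12. Rrp12 lies at 1.26, while the other points lie between -0.23 and 0.51, most of them to the right of 0.

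The genes of ribosomal RNA transcription lay close to 0. Of 5 genes 4 were above 0, none passed, and the median was 0.078. Polr1a, which encodes the largest subunit of RNA polymerase I, lay at 7.46, 7.46 and 7.64 on the labelled transgenic arrays and at 7.82, 7.65 and 7.60 on the others, with array 3 of the first group above array 3 of the second. Its difference was -0.17 ± 0.09 (SE, adjusted p = 0.43), or -0.30 with the station as a block, and its other kept probe sets were at -0.04 and -0.10. The second-largest subunit, Polr1b, was at 0.08 ± 0.10 (adjusted p = 0.746), and Polr1c, a subunit shared with RNA polymerase III, at 0.09 ± 0.08 (adjusted p = 0.614). Rrn3, the initiation factor that links the polymerase to the promoter, was at 0.04 ± 0.10 (adjusted p = 0.895). Ubtf, which binds ribosomal DNA as the upstream binding factor, was at 0.11 ± 0.10 (adjusted p = 0.636) by its brightest probe set and at 0.53 ± 0.19 (adjusted p = 0.26) by its dimmer one. On the dimmer Ubtf probe set non-transgenic array 3, at 5.35, lay far below non-transgenic arrays 1 and 2, at 5.91 and 6.11, and all 3 labelled transgenic arrays lay above them.

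The proteins of the box C/D snoRNPs, which carry out ribosomal RNA methylation, all had differences above 0. None of the 3 passed, and their median was 0.19. Fbl, the methyltransferase fibrillarin, differed by 0.13 ± 0.09 (adjusted p = 0.513), and its other probe set by 0.14. Nop56, a core scaffold protein, differed by 0.19 ± 0.10 (adjusted p = 0.429) and by 0.0005 with the station as a block. Its partner Nop58 lay at 5.36, 5.71 and 6.05 on the labelled transgenic arrays and at 5.14, 5.34 and 5.32 on the others. The groups did not overlap, with 0.025 between the lowest value of the first and the highest of the second. The difference for Nop58 was 0.44 ± 0.18 (adjusted p = 0.297).

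Within the box H/ACA snoRNPs, which carry out pseudouridylation, the 4 core proteins did not show differences of like size. Gar1 came nearest to the threshold of all members after Rrp12. It lay at 7.70, 7.82 and 7.66 on the labelled transgenic arrays and at 7.35, 7.29 and 7.19 on the others, a difference of 0.45 ± 0.08 or 1.37-fold (adjusted p = 0.0821). All 3 labelled transgenic arrays lay above the others for Gar1. With a brightness filter at log2 6, which left fewer probe sets to adjust over, its adjusted p was 0.049, and over all alternatives it ran from 0.049 to 0.245. Nhp2 lay at 8.46, 8.27 and 8.65 against 8.10, 7.95 and 7.93. Its difference was 0.46 ± 0.12 (adjusted p = 0.152), and its other probe set gave 0.53 ± 0.11 (adjusted p = 0.114), both without overlap. Dkc1, the pseudouridine synthase dyskerin, was at 0.03 ± 0.12 (adjusted p = 0.942), with its other probe sets at 0.21 and 0.25. Nop10 lay the other way, at 11.57, 11.50 and 11.76 against 11.80, 11.76 and 11.86, with a difference of -0.20 ± 0.09 (adjusted p = 0.339) and of -0.04 by its other probe set. On the brighter Nop10 probe set the groups did not overlap, but labelled transgenic array 3 and non-transgenic array 2 were equal at 2 decimals. The promoters of Gar1 and Nhp2, from 250 bases before to 50 after the gene's start (RefSeq, GRCm38.p6), are shown because these members had the smallest p-values in their complex and both hold an ETS factor motif, CCGGAAG on either strand, in capitals.
Gar1 promoter, chr3:129831347-129831646, minus strand: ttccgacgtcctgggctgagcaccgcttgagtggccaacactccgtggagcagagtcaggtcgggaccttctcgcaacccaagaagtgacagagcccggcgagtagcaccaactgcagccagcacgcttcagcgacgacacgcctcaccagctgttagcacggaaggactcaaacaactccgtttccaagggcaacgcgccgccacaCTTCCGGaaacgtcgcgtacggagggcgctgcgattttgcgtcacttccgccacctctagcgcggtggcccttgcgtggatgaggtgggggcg
Nhp2 promoter, chr11:51619523-51619822, plus strand: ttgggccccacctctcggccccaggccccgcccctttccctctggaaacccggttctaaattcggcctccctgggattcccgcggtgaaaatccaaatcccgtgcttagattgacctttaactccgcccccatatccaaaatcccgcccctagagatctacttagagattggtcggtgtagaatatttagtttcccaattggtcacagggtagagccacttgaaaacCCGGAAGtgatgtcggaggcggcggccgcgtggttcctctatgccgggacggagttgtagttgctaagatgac

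**Figure D2:**
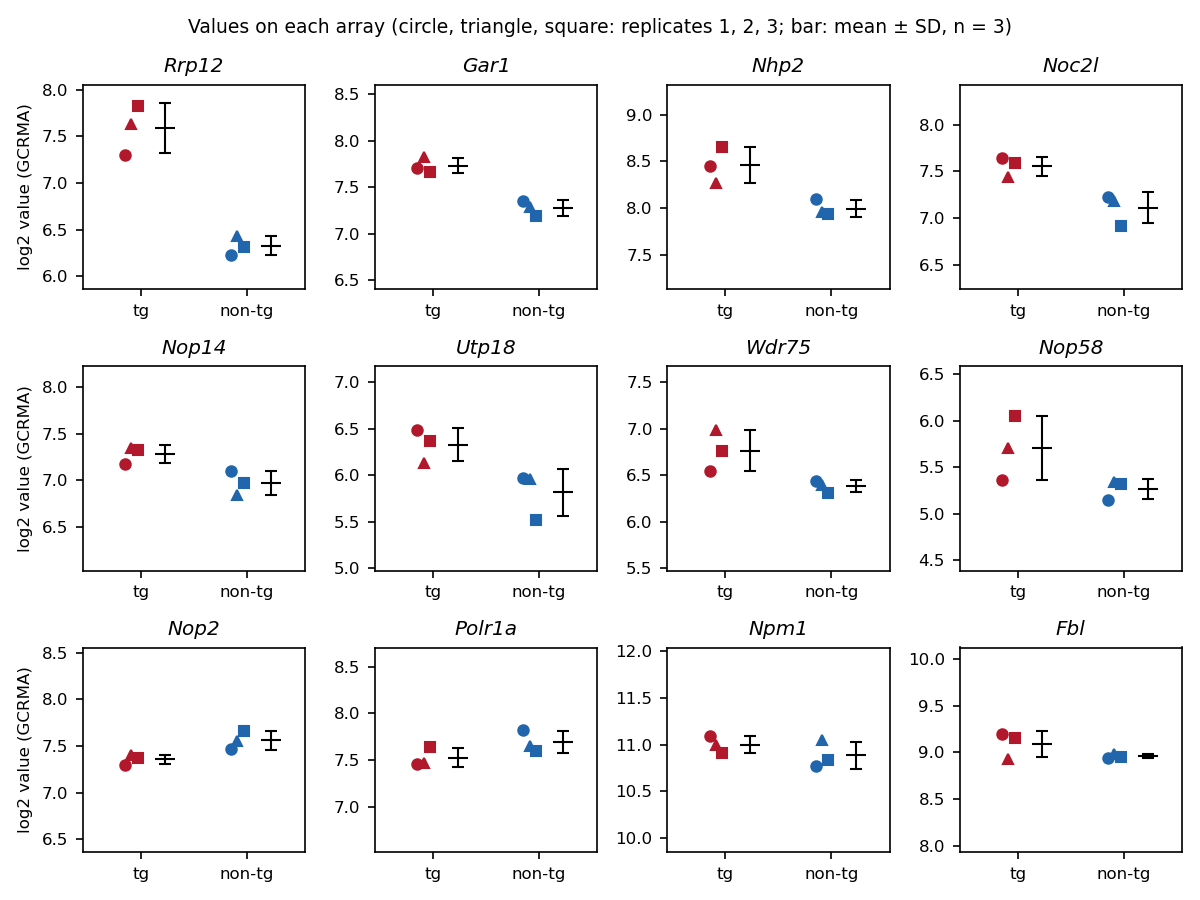
Log2 values (GCRMA, y axis) of 12 members on each array, with replicates 1, 2 and 3 as circle, triangle and square, labelled transgenic in red and non-transgenic in blue, and the mean ± SD (n = 3) in black; every panel spans the same log2 range. The groups are 1.26 apart for Rrp12, and between 0.11 and 0.51 apart for the others in size, with Nop2 and Polr1a lower in the labelled transgenic group.

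The abundant nucleolar proteins and regulators all had differences above 0, and none of the 6 passed (median 0.15). Ncl, the RNA-binding protein nucleolin, lay at 11.54, 11.60 and 11.53 against 11.49, 11.39 and 11.29, a difference of 0.17 ± 0.08 (adjusted p = 0.338) without overlap, and of 0.074 with the station as a block. Its other 4 probe sets ranged from -0.33 to 0.32, so they did not share a direction. Npm1, the histone and ribosome chaperone nucleophosmin, was at 0.11 ± 0.10 (adjusted p = 0.618), with 0.11 also from its other probe set and 0.22 with the station as a block. Ddx21, an RNA helicase, was at 0.23 ± 0.11 (adjusted p = 0.367). Its other probe set lay at 7.50, 7.26 and 7.38 against 7.02, 6.93 and 7.01, a difference of 0.39 ± 0.08 (adjusted p = 0.119) without overlap. Nolc1, a snoRNP chaperone, was at 0.20 ± 0.10 (adjusted p = 0.408), Gnl3, the GTPase nucleostemin, at 0.14 ± 0.08 (adjusted p = 0.469), and Mybbp1a, a nucleolar MYB-binding protein, at 0.02 ± 0.08 (adjusted p = 0.917).

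The small subunit processome was mixed. Of its 11 genes 7 were above 0 and 4 below, none passed, and the median was 0.084. Utp18, a WD-repeat subunit, lay at 6.48, 6.13 and 6.37 against 5.97, 5.95 and 5.52. Its labelled transgenic values all lay above the others, with non-transgenic array 3 lowest, and the difference was 0.51 ± 0.16 (adjusted p = 0.202). Wdr75, another WD-repeat subunit, lay at 6.55, 6.99 and 6.76 against 6.43, 6.40 and 6.31, a difference of 0.39 ± 0.12 (adjusted p = 0.214) without overlap. Nop14 lay at 7.18, 7.35 and 7.33 against 7.10, 6.85 and 6.97, a difference of 0.31 ± 0.09 (adjusted p = 0.198), or 0.19 with the station as a block. Wdr43 was at 0.08 ± 0.13 (adjusted p = 0.79) by its brightest probe set and 0.39 ± 0.12 (adjusted p = 0.21) by the other. Rrp9, a protein of the U3 snoRNP, was at 0.13 ± 0.09, Imp4, of the complex that joins U3 to the precursor, at 0.11 ± 0.17, and Heatr1, the UTP10 homologue, at 0.08 ± 0.06. The genes below 0 were Noc4l at -0.23 ± 0.16 (-0.49 with the station as a block), Imp3 at -0.11 ± 0.08, Utp14a at -0.03 ± 0.09 and Utp20 at -0.03 ± 0.17. The groups overlapped for each of these 4 except Imp3, which lay at 8.88, 8.70 and 8.86 against 8.94, 8.88 and 8.95. Of the 4 Noc4l probe sets 3 were below 0 and the dimmest was at 0.20. The Utp18 promoter is shown as that of the largest difference after Rrp12 by brightest probe set. It holds an E-box, CACGTG, the site read by MYC and related factors, and the ETS motif on each strand, all in capitals.
Utp18 promoter, chr11:93885717-93886016, minus strand: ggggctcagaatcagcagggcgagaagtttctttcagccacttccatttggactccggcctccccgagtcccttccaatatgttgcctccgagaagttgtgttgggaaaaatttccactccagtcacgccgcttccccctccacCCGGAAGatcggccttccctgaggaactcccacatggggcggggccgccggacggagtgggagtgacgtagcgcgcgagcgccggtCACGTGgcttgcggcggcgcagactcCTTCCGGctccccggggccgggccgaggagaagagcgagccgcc

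The other members of late 40S maturation did not follow Rrp12. Bysl, the bystin of small subunit export, lay at 8.07, 7.84 and 8.19 against 8.08, 8.04 and 7.88, a difference of 0.03 ± 0.11 (adjusted p = 0.916) with a 95% interval from -0.24 to 0.31. Nob1, the nuclease that makes the final cut of the small subunit RNA, lay at 8.10, 8.08 and 8.34 against 8.11, 8.08 and 8.04, a difference of 0.10 ± 0.09 (adjusted p = 0.654) with an interval from -0.13 to 0.32. For both genes the groups overlapped.

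The factors of 60S assembly had differences above 0 in 10 of 11 genes, none of which passed (median 0.14). Noc2l lay at 7.64, 7.44 and 7.59 against 7.23, 7.18 and 6.92, a difference of 0.45 ± 0.11 (adjusted p = 0.145) without overlap, and its dim other probe set was at 0.07. Rrp15 lay at 5.67, 6.45 and 6.27 against 5.69, 5.66 and 5.68. Labelled transgenic array 1 was among the non-transgenic values, and the difference of 0.45 ± 0.20 (adjusted p = 0.334) came from the other 2 arrays. The PeBoW complex of Pes1, Bop1 and Wdr12 is required for processing of the large subunit RNA. Bop1 was at 0.37 ± 0.15 (adjusted p = 0.295), Wdr12 at 0.32 ± 0.12 (adjusted p = 0.282) and Pes1 at 0.31 ± 0.15 (adjusted p = 0.375). Their other probe sets were at 0.004, -0.03 and -0.03, in that order. With the station as a block Bop1 was at 0.11 and Pes1 at 0.009, while Wdr12 was at 0.32. In Nop16 and Noc3l the groups did not overlap, at differences of 0.14 ± 0.06 (adjusted p = 0.327) and 0.14 ± 0.07 (adjusted p = 0.388). Rrp1 was at 0.10 ± 0.08, its relative Rrp1b at 0.09 ± 0.10, and Rrp8, a methyltransferase of large subunit RNA, at 0.09 ± 0.07, with other probe sets of Rrp1b at 0.36 and 0.48.

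Nop2, a cytosine methyltransferase of the large subunit RNA, was the single gene of 60S assembly below 0. It lay at 7.30, 7.40 and 7.37 on the labelled transgenic arrays and at 7.46, 7.55 and 7.66 on the others, so the groups did not overlap. The difference of -0.20 ± 0.08 did not pass (adjusted p = 0.282), and it was -0.11 with the station as a block. Its promoter is shown beside that of Utp18 because it too holds both the E-box and the ETS motif, although the measured differences of Nop2 and Utp18 had opposite signs.
Nop2 promoter, chr6:125131633-125131932, plus strand: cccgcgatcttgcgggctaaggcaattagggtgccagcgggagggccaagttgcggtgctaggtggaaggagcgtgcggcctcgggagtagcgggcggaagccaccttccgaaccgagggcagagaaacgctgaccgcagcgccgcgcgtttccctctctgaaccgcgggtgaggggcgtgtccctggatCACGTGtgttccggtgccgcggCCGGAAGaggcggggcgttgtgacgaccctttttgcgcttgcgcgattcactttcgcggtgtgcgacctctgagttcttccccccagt

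A promoter of this window was matched for 39 of the 43 members, all but Bop1, Fbl, Npm1 and Rrp12. The E-box stood in the promoters of 8 of 39 (20.5%), Imp4, Mybbp1a, Nop2, Pes1, Rrn3, Utp18, Utp20 and Wdr43, against 11.8% of the 8907 measured genes with a promoter and 8.11% of all 26742 genes. The ETS motif stood in 11 of 39 (28.2%), against 19.9% of measured genes and 10% of all. It did not overlap an E-box in the promoters printed above. Members with an E-box had a median difference of 0.061 and those without one of 0.13, while members with the ETS motif had 0.20 and those without 0.098. The YY1 motif AAGATGGC stood in 1 of 39, that of Imp4 (5.52% of measured genes). The palindromic NRF1 and ZBTB33 motifs, in 2.35% and 1.12% of measured genes, stood in 0 of 39. All motifs were searched on both strands, and a match is a description of the letters.

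The arrays within a group were not alike over the members. For the 42 genes other than Rrp12, the median deviation from each gene's own mean was 0.065, 0.010 and 0.12 on labelled transgenic arrays 1, 2 and 3, and -0.034, -0.077 and -0.11 on non-transgenic arrays 1, 2 and 3. All genes together lay between -0.025 and 0.014. The members' medians thus fell into the groups without overlap, with labelled transgenic array 2 nearest to the other group. Non-transgenic array 3 held the lowest value in 18 of 42 genes, or 42.9%, against 20.5% of all genes. Labelled transgenic array 3 held the highest in 14 of 42, or 33.3%, against 22.9%, and array 1 of that group in 13 of 42, or 31.0%, against 15.2%. Rrp12 itself was highest on labelled transgenic array 3 and lowest on non-transgenic array 1.

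**Figure D3:**
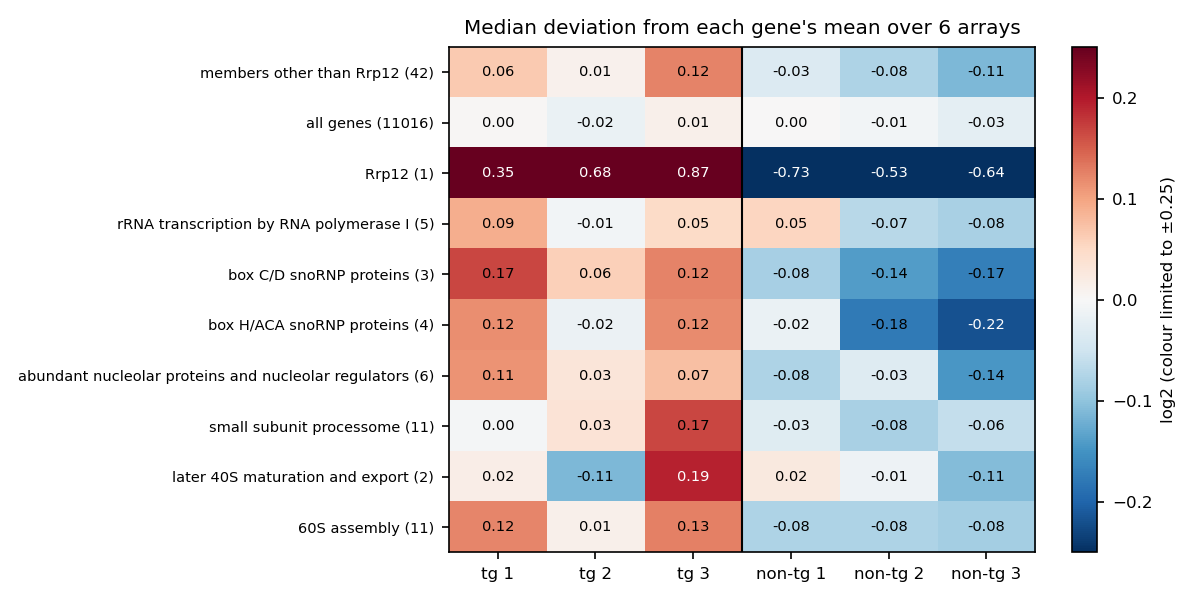
Median deviation from each gene's mean over the 6 arrays (log2, colour and number) on each array (columns), for all genes, Rrp12, the other 42 members together and each role group without Rrp12 (rows, number of genes in brackets). The 42 members run from -0.11 on non-transgenic array 3 to 0.12 on labelled transgenic array 3, and RNA polymerase I genes show 0.05 on non-transgenic array 1.

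Probe sets of the same gene often gave different values. Of the 24 genes with 2 or more probe sets kept, 19 had the same sign in all of them and 5 did not, namely Ncl, Noc4l, Nolc1, Pes1 and Wdr12. The highest and lowest differences within a gene were 0.17 apart at the median and 0.66 at most, in Ncl. This spread was larger than the median difference of the members, 0.11.

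The rest of the pathway was described with 107 measured genes of 111 listed as other factors of ribosome biogenesis. Among them 81 were above 0 and 26 below (75.7% above, against 52.4% of all genes), their median was 0.099, and none passed. At an unadjusted p under 0.05, 16 of 107 were higher and 1 was lower, where 10.4% of all genes were higher and 7.76% lower. The 3 with the smallest p were Exosc1, Ddx27 and Lyar. Exosc1, a subunit of the RNA exosome that trims ribosomal RNA precursors, lay at 7.84, 7.80 and 7.96 against 7.29, 7.19 and 7.37. Its difference was 0.58 ± 0.08 (adjusted p = 0.0695), although the mean of its probe sets gave 0.16. Ddx27, an RNA helicase, lay at 6.55, 6.20 and 6.22 against 5.73, 5.78 and 5.73, a difference of 0.58 ± 0.11 (adjusted p = 0.0949). Lyar, a nucleolar zinc finger protein, was at 0.36 ± 0.07 (adjusted p = 0.102). With a brightness filter at log2 6 the adjusted p was 0.033 for Exosc1 and 0.0499 for Ddx27. The differences of all 3 were smaller than that of Rrp12.

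Among 10 other subunits and factors of RNA polymerase I, 7 were above 0, none passed, and the median was 0.077. Polr1e, a subunit of the polymerase, lay at 8.02, 8.23 and 8.39 against 7.86, 7.51 and 7.44, a difference of 0.61 ± 0.15 (adjusted p = 0.145) without overlap, and of 0.36 with the station as a block. Taf1b, of the promoter selectivity factor, was at 0.66 ± 0.26 (adjusted p = 0.295) and Twistnb, another polymerase subunit, at -0.23 ± 0.12 (adjusted p = 0.393). Cytosolic ribosomal proteins had 43 measured genes of 79 listed. Of the rest, 1 lay below the filter and 35 had no probe set annotated to them alone, so much of the family is not covered. Among the 43 measured, 36 were above 0 (83.7%, against 52.4% of all genes) and none passed, with a median of 0.082. At an unadjusted p under 0.05, 3 of 43 were higher, a smaller share than the 10.4% of all genes. They were Rps28 at 0.25 ± 0.07 (adjusted p = 0.17), Rpl35 at 0.19 ± 0.08 (adjusted p = 0.301) and Rpl12 at 0.59 ± 0.23 (adjusted p = 0.289). The Rpl12 probe set was dim, at 3.24, 3.70 and 3.84 against 3.21, 2.58 and 3.22. Only labelled transgenic arrays 2 and 3 exceeded the filter's level of log2 3.285. Rpl12 thus passed the filter through the group where it is higher, and neither its difference nor its place in that count supports a rise.

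**Figure D4:**
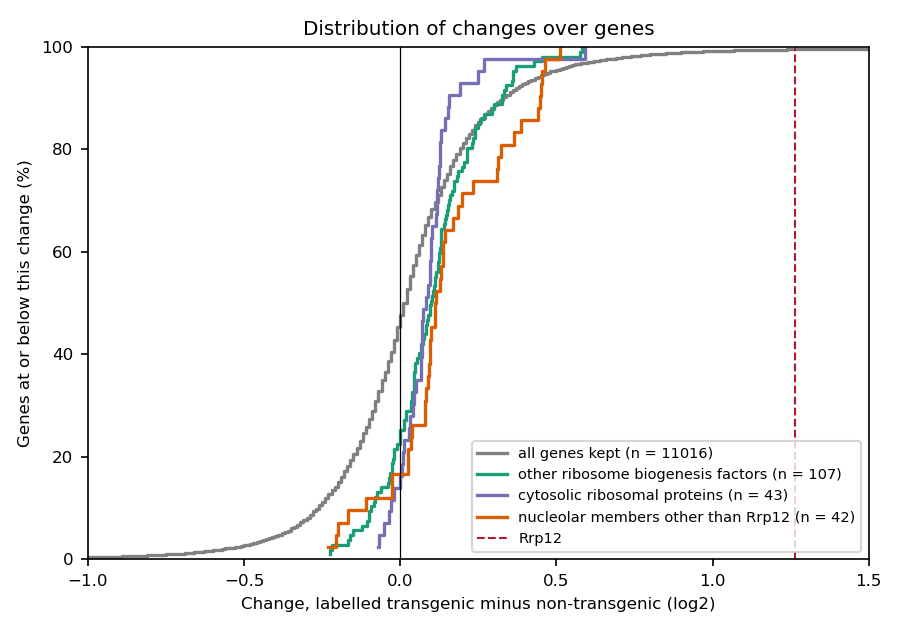
Cumulative share of genes (y axis, %) at or below each difference between labelled transgenic and non-transgenic arrays (x axis, log2; grey, all 11016 genes, drawn from -1 to 1.5). The curves of the 42 members, the 107 other biogenesis factors and the 43 ribosomal proteins lie to the right of all genes near 0, and none of the 3 lists reaches the dashed line of Rrp12 at 1.26.

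Fibroblast and macrophage markers had higher mean levels on the labelled transgenic arrays of these whole-tissue samples, in which more cells of a type and more RNA per cell cannot be told apart. Over all genes, 52.4% were above 0 and 10.4% were higher at an unadjusted p under 0.05. Of 10 fibroblast markers all were above 0 (median 0.67, 7 higher at an unadjusted p under 0.05, none passing), and their mean level ran from 9.89 to 10.31 on labelled transgenic arrays and from 9.27 to 9.71 on the others. Of 10 macrophage and monocyte markers all were above 0 (median 0.58, 9 higher at an unadjusted p under 0.05, none passing), with mean levels from 8.39 to 8.50 against 7.56 to 7.75. None of the markers on either list was below the filter. The 9 endothelial markers had a median difference of 0.039. The 10 cardiomyocyte markers, high on every array as in heart tissue, had a median difference of -0.015. Of these, 5 were above 0 and 5 below, and 0 had an unadjusted p under 0.05 in either direction (limma). The 3 labelled transgenic arrays lay above all 3 others in 2 of 10 (14.3% of all genes) and below in 3 of 10 (10.9%). The cardiomyocyte markers' mean level ran from 14.76 to 14.80 on labelled transgenic arrays and from 14.81 to 14.83 on the others, without overlap. These levels are near the top of the scale, as the highest value of an array ran from 15.90 to 16.05. The part of cardiomyocyte, fibroblast and macrophage RNA in the values of the nucleolar genes was not tested.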

How the data were processed

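RNA from 6 mouse heart samples was measured on Affymetrix Mouse430_2 arrays. The authors deposited 1 log2 value per probe set, made with GCRMA (background correction and normalization) per the submitters' processing notes, whose version is not stated there. The instrument's deposited text records, with other fields than expression, gave station, scan order and typed words. GCRMA compresses dim values, so differences of dim probe sets are uncertain.

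The array's 64 control probe sets were dropped. By GEO's platform annotation, 34945 of the others had 1 gene, 932 several and 9160 none, and only those with 1 were named. A brightness filter kept probe sets whose 6-array mean exceeded the median such mean, log2 3.285. Group differences were fitted in limma 3.58.1 under R 4.3.3 (lmFit, eBayes, 2-sided, Benjamini-Hochberg over all 22518 probe sets kept, threshold 0.05). This fit gave every adjusted p printed except those given with another filter or over the alternatives, each adjusted within its own fit. Log2 differences carry the moderated standard error of limma. No pair of arrays shared over 0.0178% of their values. On data simulated for these 22518 probe sets the fit recovered 17.5% of changes of 0.5, 80.9% of 1 and 97.7% of 2 (log2), so differences of the size seen in most members would usually be missed. The number of arrays limits the precision.

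Members and lists were chosen with earlier results of these data known. Named genes were all members and, of each other pathway list, those passing or else the 3 with the smallest p. Alternatives covered the filter, normalization, centring, variance, array weights, replicate number or station as a block, station 2 alone, Xist as a term, averaging the probe sets of each gene, and each array left out.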

Additional observations from a re-analysis of the deposited data

How the results depend on the processing

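With 49 probe sets called in all, the count was 15 with no brightness filter, 302 with a mean above log2 6, 108 with trended variance, 2 with the station as a block, and 0 within station 2 (3771 at an unadjusted p under 0.05) or with Xist as a term (3126), and it ran from 0 to 75 with single arrays left out (2532 to 3455 unadjusted). Omitting labelled transgenic array 1 gave 75, omitting non-transgenic array 1 gave 5, and each of the other 4 omissions gave 0. Counts of member probe sets and member genes past the threshold include Rrp12, whose difference prompted the list and is no test of it. Both were 1, Rrp12 itself, with 0 other members. They were 2 with a mean above log2 6, where Gar1 was added, and 0 with no filter, quantile normalization, robust variance, the station as a block, station 2 alone or Xist as a term, and from 0 to 1 with single arrays left out, the 1 being without labelled transgenic array 1. The median difference of member genes ran from 0.088 (quantile normalization) to 0.16 (without labelled transgenic array 2) over all alternatives. The difference of Rrp12 ran from 1.14 to 1.41 over all 18. Rrp12 was chosen for its rise and its groups did not overlap, so leaving out an array could not turn its sign.

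Same-numbered arrays did not deviate together (correlations of -0.083, -0.17 and -0.0067). Deviations from means of 3 arrays cannot show whether the replicate numbers pair the samples by origin. Same-numbered arrays also differed in Xist, at 9.48 against 2.49, 2.58 against 9.69 and 9.48 against 3.01 (labelled transgenic against non-transgenic, numbers 1, 2 and 3). With the replicate block the counts were 0 probe sets (3324 unadjusted), 0 member probe sets and 0 member genes.

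Of the 43 members 33 kept their sign in every alternative run, and 10 with differences of at most 0.11 in size did not. Blocking on station and restricting to station 2 gave the same values, -0.047 for Bysl, -0.23 for Dkc1, -0.15 for Imp4, -0.073 for Polr1b, -0.0096 for Polr1c, -0.024 for Wdr43 and 0.023 for Utp14a. With Xist as a term Bysl was at -0.016, and with array weights Mybbp1a was at -0.00061 and Utp20 at 0.045. Leaving out labelled transgenic array 1 gave -0.015 for Mybbp1a, array 2 gave 0.077 for Utp20, and array 3 gave -0.042 for Bysl, -0.0062 for Dkc1 and -0.043 for Rrn3. Leaving out non-transgenic array 1 gave 0.13 for Utp20, array 2 gave -0.037 for Dkc1, -0.017 for Mybbp1a, -0.012 for Polr1b and -0.046 for Wdr43, and array 3 gave -0.024 for Bysl, -0.037 for Dkc1, -0.023 for Imp4 and 0.046 for Utp14a. The cause of these changes was not tested. Averaging the probe sets of each gene gave 50 genes in all, with no count of probe sets. Single-array omissions reached as far as 0.15 for Dkc1, 0.24 for Imp4, 0.074 for Mybbp1a, 0.15 for Polr1b and -0.074 for Utp14a in the unturned direction. Polr3k, which is no member, ran from -0.13 to 0.0046 with single arrays left out, turning without non-transgenic array 1.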

Other observations

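The MYC network, which regulates ribosome biogenesis genes in many tissues, was measured with 11 of 12 listed genes. None passed, 8 were above 0 and the median was 0.047. Myc itself lay at 4.62, 4.14 and 4.13 on labelled transgenic arrays and at 4.05, 4.15 and 4.09 on the others, so the groups overlapped, at a difference of 0.20 ± 0.14 (limma, adjusted p = 0.545). Mlxip, which partners MLX in glucose sensing, had the smallest p of the list at -0.20 ± 0.06 (adjusted p = 0.207), and Mga was at 0.14 ± 0.09 (adjusted p = 0.491). RNA polymerase III subunits, which make the 5S ribosomal RNA, had 8 measured genes of 10 listed, of which 2 were above 0 and none passed (median -0.040). Polr3e was at 0.40 ± 0.18 (adjusted p = 0.348), Polr3b at 0.15 ± 0.14 (adjusted p = 0.638) and Polr3k at -0.080 ± 0.090 (adjusted p = 0.708). Of 16 proliferation markers 8 were measured and 7 lay below the brightness filter. None of the 8 passed, and their median was -0.028.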
